A study of Mus musculus with 6 samples.

Results

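The genes described here are 38 genes of the G2 phase and of mitosis, read on 6 arrays of the mouse cell line 32D. They were chosen as a list of cyclins, kinases, checkpoint, kinetochore, spindle and cytokinesis genes, and for each gene the probe set whose mean over the 6 arrays was highest stands for it. Of the 38 listed genes, 37 had a probe set annotated to that gene alone, and all 37 lay above the limit for dim probe sets, among 10208 genes tested of 18193 with such a probe set. Ccnb1, which encodes cyclin B1, was not analysed here.

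32D is an immature myeloid cell line from mouse that depends on interleukin-3 for growth. The 3 control arrays are from cells with the empty vector (construct label A1-EV) and the other 3 from cells expressing miR-9 and miR-9* (construct label C2-MiR-9), and in each arm the arrays are numbered 1 to 3. All cells grew in RPMI medium with 10% FCS, antibiotics and murine IL-3 at 10 ng/ml, and no group without IL-3 is analysed here. The labels and protocols name neither the promoter of the construct nor the number of clones behind each arm, and the levels of the 2 microRNAs were not analysed here. The design calls the replicates independent but does not tell whether they came from separate cultures, so the p-values measure the spread between these arrays, which may be partly technical. In a bulk RNA sample, fewer cells in G2 and mitosis and less of these RNAs per cell cannot be told apart.

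Cells enter mitosis when CDK1, bound to cyclins A and B and freed of inhibitory phosphates by CDC25 phosphatases, becomes active. Polo-like and Aurora kinases then build the spindle, kinetochores attach chromosomes to it, the checkpoint holds back the anaphase-promoting complex until attachment is complete, and the central spindle guides cell division. The RNAs of these genes rise late in the cycle under a shared program in which the MuvB complex, with B-MYB and FOXM1, acts through a promoter element called the CHR, and NF-Y acts through CCAAT boxes, so their summed level is widely used as a measure of proliferation.

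The 2 RNAs that distinguish the arms come from the opposite arms of the same hairpin and have different seeds, the bases 2 to 8 that pair with target RNAs. They are printed from RefSeq (assembly GRCm38.p6) to show what was expressed, with the seed in capitals. miR-9 is the 5-prime arm and miR-9* the 3-prime arm, and each mature sequence is listed from 3 loci.
mmu-miR-9-5p: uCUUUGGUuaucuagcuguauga
mmu-miR-9-3p: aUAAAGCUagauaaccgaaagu

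Promoters of 31 of the 38 genes were found in the RefSeq table of windows from 250 bases before to 50 after each transcript start (GRCm38.p6). The CHR core was searched as TTTGAA and the CCAAT box as CCAAT, each on both strands, with overlapping matches counted. TTTGAA was present in 23 of the 31 genes (74.2%), CCAAT in 24 (77.4%) and both in 20 (64.5%). Over all 27025 genes of the table the shares were 20.2%, 41.1% and 7.97%, and over the 8373 genes tested on the arrays that matched they were 14.3%, 43.0% and 5.77%. These are matches of letters, not binding sites.

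Windows are shown for 5 genes whose levels differed between replicate numbers, as described further on. Aurka, Cdk1, Ube2c and Hmmr were higher at number 3 and are the 4 members with the smallest p across numbers among those with both motifs in a single promoter window. Cdc25b was the called member that was lower at number 3. Its window holds no TTTGAA, and neither do those of Birc5, Bub1, Mad2l1 and Nusap1, which were called and highest at number 3. The 5 genes shown were chosen after their values were seen. Each is printed 5-prime to 3-prime on the gene's own strand, with matches to TTTGAA, or TTCAAA when read on the other strand, and to CCAAT, or ATTGG when read on the other strand, in capitals. The windows are chr2:172370521-172370820 on the minus strand for Aurka, chr10:69352863-69353162 on the minus strand for Cdk1, chr2:164769679-164769978 on the plus strand for Ube2c, chr11:40733388-40733687 on the minus strand for Hmmr and chr2:131186698-131186997 on the plus strand for Cdc25b.
Aurka promoter: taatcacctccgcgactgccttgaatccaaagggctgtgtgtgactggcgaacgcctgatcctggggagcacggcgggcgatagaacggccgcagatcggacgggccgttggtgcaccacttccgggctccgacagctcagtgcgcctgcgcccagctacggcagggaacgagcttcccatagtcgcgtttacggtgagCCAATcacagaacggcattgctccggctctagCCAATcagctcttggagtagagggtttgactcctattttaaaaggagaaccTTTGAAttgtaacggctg
Cdk1 promoter: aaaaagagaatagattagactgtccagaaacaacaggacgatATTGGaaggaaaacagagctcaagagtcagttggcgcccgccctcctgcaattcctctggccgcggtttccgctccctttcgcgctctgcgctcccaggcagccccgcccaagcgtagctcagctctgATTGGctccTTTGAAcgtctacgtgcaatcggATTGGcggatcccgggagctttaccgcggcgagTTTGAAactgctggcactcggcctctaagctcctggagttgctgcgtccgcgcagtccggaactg
Ube2c promoter: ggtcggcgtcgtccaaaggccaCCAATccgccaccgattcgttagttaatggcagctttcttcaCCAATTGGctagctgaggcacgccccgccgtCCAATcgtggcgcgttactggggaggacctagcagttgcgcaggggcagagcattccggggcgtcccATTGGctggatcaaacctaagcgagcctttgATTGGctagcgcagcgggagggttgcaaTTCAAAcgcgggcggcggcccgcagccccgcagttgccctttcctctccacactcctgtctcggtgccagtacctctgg
Hmmr promoter: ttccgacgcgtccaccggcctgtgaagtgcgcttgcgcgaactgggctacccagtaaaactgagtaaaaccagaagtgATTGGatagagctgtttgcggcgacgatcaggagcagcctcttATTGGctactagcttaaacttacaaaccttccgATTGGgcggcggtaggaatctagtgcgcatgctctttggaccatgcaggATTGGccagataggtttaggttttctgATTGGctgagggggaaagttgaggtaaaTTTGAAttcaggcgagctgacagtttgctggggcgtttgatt
Cdc25b promoter: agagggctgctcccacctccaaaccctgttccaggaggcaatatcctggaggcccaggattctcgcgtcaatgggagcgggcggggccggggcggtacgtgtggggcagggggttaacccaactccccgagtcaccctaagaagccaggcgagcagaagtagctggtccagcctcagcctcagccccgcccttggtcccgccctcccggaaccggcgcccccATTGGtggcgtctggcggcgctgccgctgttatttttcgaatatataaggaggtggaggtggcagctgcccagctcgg

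With the first transcribed base as position 0, the TTTGAA of Aurka began at 32, downstream of CCAAT matches at -51 and -19. The Cdk1 window held TTTGAA at -71 and at -15 and 3 CCAAT matches. In Ube2c the single TTTGAA lay on the opposite strand at -29, and 2 of its 6 CCAAT matches overlapped. The Hmmr window held 5 CCAAT matches and a TTTGAA at 8, and that of Cdc25b held a single CCAAT match, on the opposite strand at -28.

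The signal of a probe set is the MAS5 summary of its probes on a linear scale, scaled so that the trimmed mean of every array is 100. The signal of a probe set depends on its probes as well as on the RNA, so signals do not rank genes by RNA level, and are used across probe sets only to class them as bright or dim, to choose which genes to name and to sum marker lists. Mean signals of the 37 genes over the 6 arrays ran from 58.3 to 2513, with a median of 455. Differences are given on the scale of log2(signal + 16), which understates changes of dim probe sets. Array medians lay between 11.99 and 15.2, the arrays correlated with each other at Spearman coefficients of 0.919 to 0.942 over all probe sets, and no 2 arrays were identical. Of 13 myeloid progenitor genes, markers of the labelled cell type, 12 were above the limit for dim probe sets, as were 10208 of all 18193 genes. Elane, which encodes neutrophil elastase, stayed at or below a signal of 15.1. The limit is not a detection call. Of other marker lists, 7 of 11 erythroid, 7 of 10 late neutrophil and 7 of 10 megakaryocyte genes passed it, but only 2 of 9 lymphoid. The first principal component of the tested genes held 45.7% of the variance and set both arrays numbered 3, at 23.9 with the empty vector and 17.9 with miR-9/9*, apart from the other 4 arrays, all below 0.

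The first question was whether mitotic genes differ between cells with miR-9/9* and cells with the empty vector. No member was called in either direction by limma at an adjusted p of 0.05, with or without the replicate number as a block. The share of all tested genes called was 0.0588% without the block (2 higher and 4 lower) and 2.96% with it (154 higher and 148 lower). At an unadjusted p under 0.05 stood 0 of the 37 members without the block and 8 with it (21.6%), against 4.60% and 17.0% of all genes. The block is used beside the plain fit because arrays with the same number in the 2 arms shared their deviations from the arm means, with correlations of 0.491, 0.616 and 0.680 across genes.

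Although no single gene passed, most member differences were small and below 0. The median difference, miR-9/9* minus empty vector, was -0.10 on the log2 scale, with quartiles of -0.14 and -0.04, and that of all genes tested was 0.01. Of the 37 members, 29 (78.4%) were below 0, against 47.6% of all genes, and 14 (37.8%) were lower with miR-9/9* within every replicate number, against 18.04%. Only 3 members (8.11%), Kif23, Bub1b and Ccna2, were higher in all 3 numbers, against 21.0% of all genes. The median over members was -0.12 within number 1, -0.08 within number 2 and -0.14 within number 3.

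These descriptive values moved when single arrays were left out. Leaving out 1 array leaves its replicate number in 1 arm only, so such medians mix the difference between arms with that between numbers. Without the number 3 array of the empty vector, the median over members was -0.0048 and 20 of 37 were below 0. Without the number 3 array of miR-9/9*, the values were -0.18 and 32. The median was -0.16 without empty vector 2, -0.06 without miR-9/9* 1 and -0.03 without miR-9/9* 2. With number 3 left out of both arms it was -0.07, with 29 of 37 below 0. With the block, every member's 95% interval lay between -0.50 and 0.38, so that a 2-fold change (1 on the log2 scale) was outside it for each of the 37 on this shifted scale. Without the block the outermost bounds were -0.81 and 0.60.

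**Figure D1:**
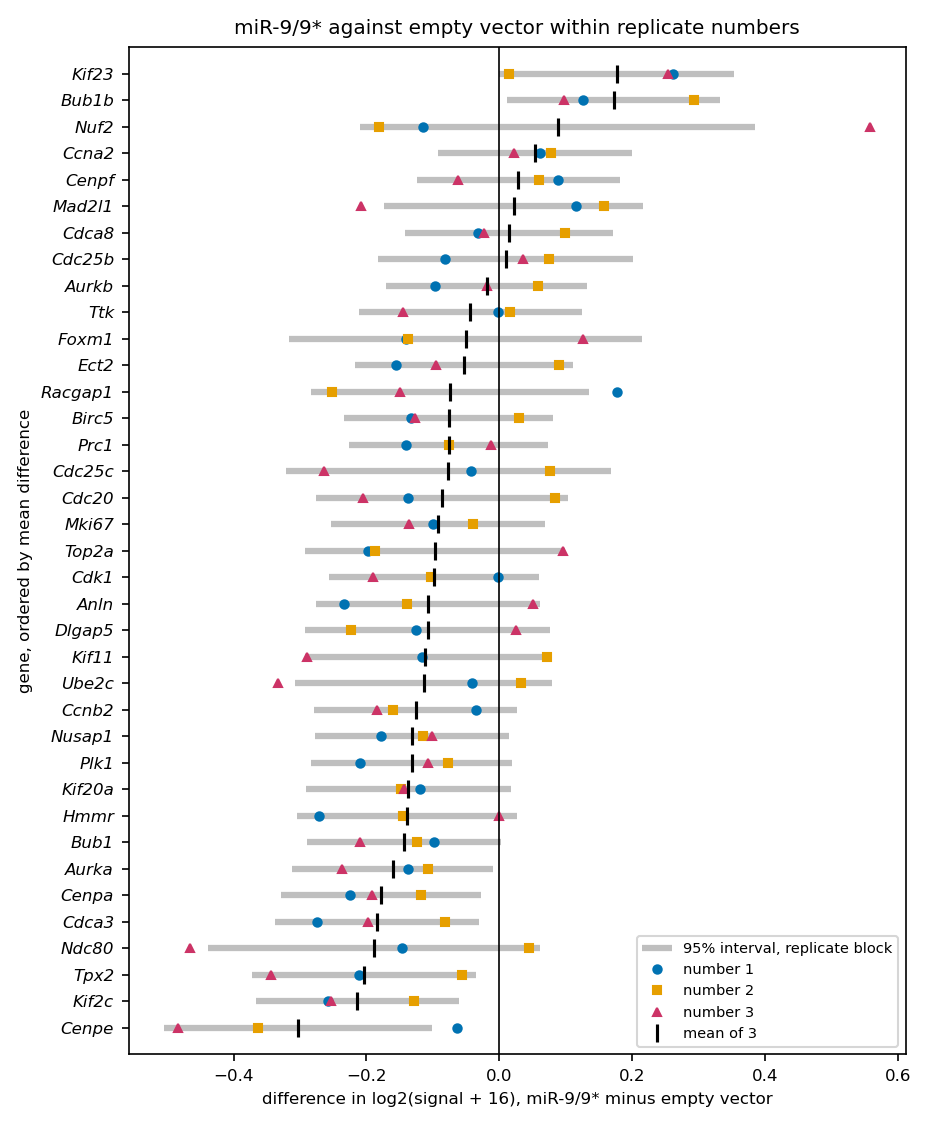
Difference in log2(signal + 16) between miR-9/9* and empty vector (x axis) for the 37 measured genes (y axis, ordered by mean difference), with a symbol for each replicate number, a tick for the mean of 3 and a bar for the 95% interval of the blocked limma fit. The means run from -0.30 for Cenpe to 0.18 for Kif23, and 29 of 37 lie below 0.

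The cyclins and CDK1 differed little between arms. Ccna2, which encodes the S and G2 phase cyclin A2, had signals of 1025, 985 and 1032 with the empty vector and 1069.6, 1041 and 1048 with miR-9/9*. On this probe set its arms did not overlap, yet the difference was only 0.05 (adjusted p = 0.740 by limma with the block). Ccnb2, the cyclin B2 gene, was at 1022, 1064 and 1279.8 against 997, 951 and 1124, a difference of -0.13 that went the same way in all 3 numbers. Arms without overlap occurred for 2 members, Ccna2 and Tpx2 (5.41%), against 9.82% of all genes.

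Among the mitotic kinases and the checkpoint, members stood on both sides of 0. Plk1, which encodes the polo-like kinase that drives centrosome maturation and mitotic entry, had signals of 445, 382 and 449 with the empty vector and 383, 361 and 416 with miR-9/9*. It was lower with miR-9/9* in every number, but its arms overlapped and the difference of -0.13 had an adjusted p of 0.366 by limma with the block. Bub1b, the checkpoint gene of BUBR1, had signals of 383, 308 and 410.1 against 419.7, 381 and 439.8. It was the member with the clearest difference upward, 0.17 (adjusted p = 0.261 by limma with the block), and its arms overlapped. For Foxm1, the gene of a transcription factor that activates many of the other members, the signals of 71.1, 54.5 and 53.4 against 63.0, 48.1 and 59.7 overlapped as well.

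The largest differences below 0 were among kinetochore and spindle genes. Cenpe, which encodes a kinetochore motor that moves chromosomes to the spindle equator, had signals of 281, 355 and 404 with the empty vector and 268, 272 and 284 with miR-9/9*. The means were 347 ± 61.9 and 275 ± 8.55 (SD, n = 3), and the arms overlapped because empty vector 1 lay between miR-9/9* 2 and 3. The difference of -0.30, with a 95% interval of -0.50 to -0.10 with the block, had an unadjusted p of 0.00770 and an adjusted p of 0.120 by limma. Without number 1 of both arms it was -0.42 with an adjusted p of 0.0462 by limma with the block, the only setting that called a member between the arms; over the other blocked settings its adjusted p ran from 0.101 to 0.329.

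Kif2c, the gene of a microtubule-depolymerising kinesin at centromeres, had signals of 469, 376 and 461 against 389, 343 and 384. Its difference was -0.21, with an adjusted p of 0.146 by limma with the block. Tpx2, whose product activates Aurora A on spindle microtubules, was at 508, 489 and 569 with the empty vector and 437, 469 and 445 with miR-9/9*. All its miR-9/9* arrays lay below all empty vector arrays, and the difference was -0.20 (adjusted p = 0.202 by limma with the block). Cenpa, the gene of the centromeric histone H3 variant, was at 1179, 1185 and 1388 against 1006, 1091 and 1214, a difference of -0.18. Cdca3, which encodes a partner of the ubiquitin ligase that triggers mitotic entry, was at 697, 605 and 776 against 574, 571 and 675, also -0.18. Both were lower in every number, and in both the arms overlapped. Ndc80, a kinetochore gene, differed by -0.19 (adjusted p = 0.441 by limma with the block). Its differences within numbers 1 to 3 were -0.15, 0.04 and -0.46, and its arms overlapped.

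By role, all 6 spindle genes (median -0.14), all 3 genes of ubiquitin-dependent progression (-0.11) and both kinases Plk1 and Aurka were below 0. So were 5 of 6 cytokinesis genes (-0.08), 3 of 5 kinetochore genes (-0.18), 2 of 3 chromosomal passenger genes (-0.02) and 2 of 4 checkpoint genes (-0.01). The exception in cytokinesis was Kif23, which encodes the kinesin of the central spindle. Its signals were 283, 228 and 307 with the empty vector and 343, 230.2 and 369 with miR-9/9*, a difference of 0.18 carried by numbers 1 and 3 (adjusted p = 0.294 by limma with the block). Nuf2, of the kinetochore's NDC80 complex, stood at 274, 240.3 and 215 against 252, 210.0 and 324, with number 3 lowest with the empty vector and highest with miR-9/9*. Anln, the gene of the cleavage furrow protein anillin, was at 509, 472 and 499.7 against 431, 427 and 518. Prc1, which encodes a bundler of central spindle microtubules, was at 504, 408 and 463 against 456, 386 and 458, and differed by -0.08. For Cenpf, a large kinetochore protein gene, the signals were 422, 413 and 488 against 449.9, 431 and 466. All 4 genes had overlapping arms. The other 6 members, Cdc25c, Ttk, Kif11, Dlgap5, Racgap1 and Ect2, differed between arms by -0.11 to -0.04, and none was called between arms or across numbers.

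The second question was how the genes spread across the replicate numbers. A moderated F test in limma, with arm and number in the fit, called 15 of the 37 members (40.5%) at an adjusted p of 0.05, where 24.3% of all genes tested were called. In 14 of the 15, number 3 was the highest array of both arms, as it was in 884 of the 2479 called among all genes. Out of everything tested, 14 of the 37 members were both called and highest there, against 8.66% of all genes. The other called member was Cdc25b, which was lowest at number 3 in both arms. Whether called or not, 26 of 37 members (70.3%) were highest at number 3 in both arms, against 21.1% of all genes, and 1 (2.70%) was lowest there in both, against 29.2%. Relative to the mean of numbers 1 and 2, number 3 differed by a median of 0.25 over members with the empty vector and 0.21 with miR-9/9*, while the medians of all genes were -0.06 and -0.03. The labels do not say what a replicate number stands for, such as a culture, an extraction or a hybridisation.

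**Figure D2:**
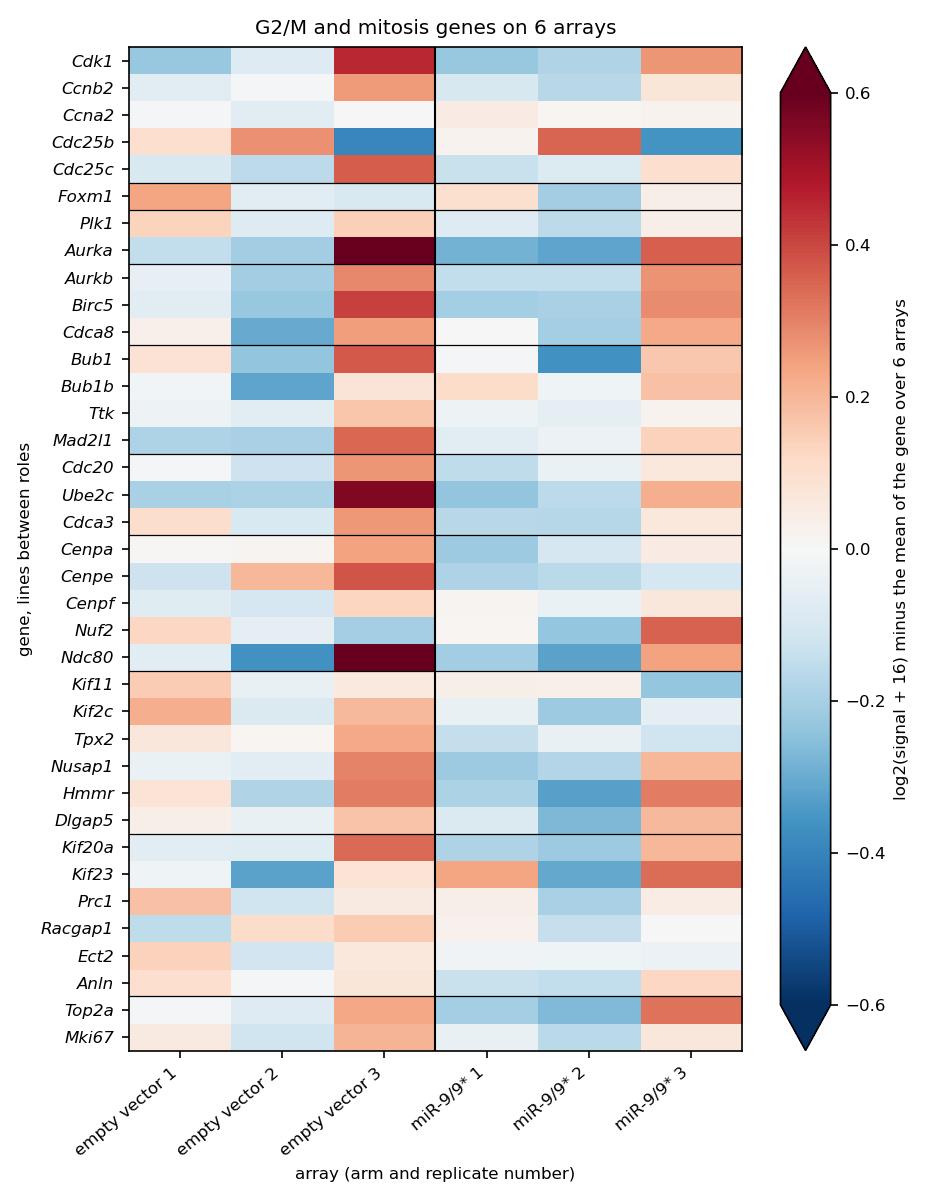
Level of each of the 37 genes (rows, grouped by role) on each of the 6 arrays (columns, by arm and replicate number), as log2(signal + 16) minus the gene's mean over the arrays; red is above and blue below that mean. Most rows are red at number 3 in both arms, and Cdc25b is blue there.

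Aurka, the gene of the Aurora A kinase of centrosomes and spindle poles, had the smallest p of the members. Its signals were 379, 362 and 645 with the empty vector and 343, 335 and 545 with miR-9/9*, so number 3 stood apart in both arms. Number 3 exceeded the mean of the others by 0.78 and 0.66 on the log2 scale (adjusted p = 0.00121, limma F test). Between the arms Aurka differed by -0.16, lower in every number, with an adjusted p of 0.263 by limma with the block.

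Cdk1, the kinase gene at the centre of mitotic entry, was at 1008, 1117 and 1624 with the empty vector and 1006, 1039.6 and 1421 with miR-9/9*. Its number 3 differences were 0.61 and 0.47 (adjusted p = 0.00431, limma F test). Cdc25b, a phosphatase gene that acts on CDK1 in G2, ran the other way, at 159.7, 182 and 109 against 150.04, 193 and 112. Its number 3 differences were -0.58 and -0.54 (adjusted p = 0.00618, limma F test), and the arms differed by 0.01. Ccna2, by contrast, had no number above the rest on the probe set used, with an adjusted p of 0.867 by the limma F test. A second Ccna2 probe set, described further on, was highest at number 3 in both arms.

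All 3 chromosomal passenger genes, whose complex corrects kinetochore attachment, were called. Birc5, the survivin gene, was at 1109, 994 and 1554 with the empty vector and 1010.4, 1015 and 1423 with miR-9/9* (adjusted p = 0.00494, limma F test). For Aurkb, the kinase of the complex, the corresponding signals were 447, 399 and 568 against 417, 416 and 561. Cdca8, which encodes borealin, stood at 1405, 1112 and 1639.7 against 1374, 1192 and 1614, with number 2 low as well as number 3 high. In all 3 genes the number 3 arrays were the highest of both arms, and differences between arms were within 0.08 of 0.

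Of the checkpoint genes, Bub1 and Mad2l1 were called. Bub1, a kinase that recruits checkpoint proteins to kinetochores, had signals of 728, 578 and 889.6 with the empty vector and 679, 529.6 and 767 with miR-9/9* (adjusted p = 0.00472, limma F test). Mad2l1, whose product MAD2 inhibits CDC20, was at 1300.3, 1291 and 1883 against 1410.0, 1441 and 1627, close to the threshold at an adjusted p of 0.0461 (limma F test). Cdc20, the activator of the anaphase-promoting complex that MAD2 inhibits, was at 2342, 2166 and 2844 against 2127, 2296 and 2465, also highest at number 3, but was not called (adjusted p = 0.143, limma F test).

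Ube2c, the ubiquitin-conjugating enzyme of the anaphase-promoting complex, was at 1367, 1373 and 2307 with the empty vector and 1329, 1404 and 1828 with miR-9/9*. Its number 3 differences were 0.74 and 0.42 (adjusted p = 0.00720, limma F test). Ndc80, which encodes the microtubule-binding subunit of the outer kinetochore, was at 122, 95.6 and 219 against 108, 99.1 and 154. Its number 3 difference of 0.92 in the empty vector arm and 0.51 in the other was the widest of any member with the empty vector (adjusted p = 0.00784, limma F test).

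The called spindle, cytokinesis and chromosome genes were Hmmr, Nusap1, Kif20a, Kif23 and Top2a. Hmmr, a spindle-associated hyaluronan receptor gene, was at 516, 427 and 605 with the empty vector and 425, 384 and 605 with miR-9/9*. Top2a, which encodes the topoisomerase that untangles sister chromatids, was at 2469, 2352 and 2919.6 against 2151, 2064 and 3119.7 (adjusted p = 0.0262, limma F test). Kif20a, a kinesin gene of the central spindle, was at 275, 273 and 369 with the empty vector and 252, 245 and 333 with miR-9/9*. In these 3 genes, as in Kif23, both number 3 arrays were the highest of their arms. Nusap1, a microtubule-bundling protein gene, was also highest at number 3 in both arms, at 976, 959 and 1237 against 860.2, 885 and 1152. Mki67, the gene of the proliferation marker Ki-67, was at 1969, 1742 and 2185 against 1836, 1694 and 1988, without being called (adjusted p = 0.0953, limma F test).

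**Figure D3:**
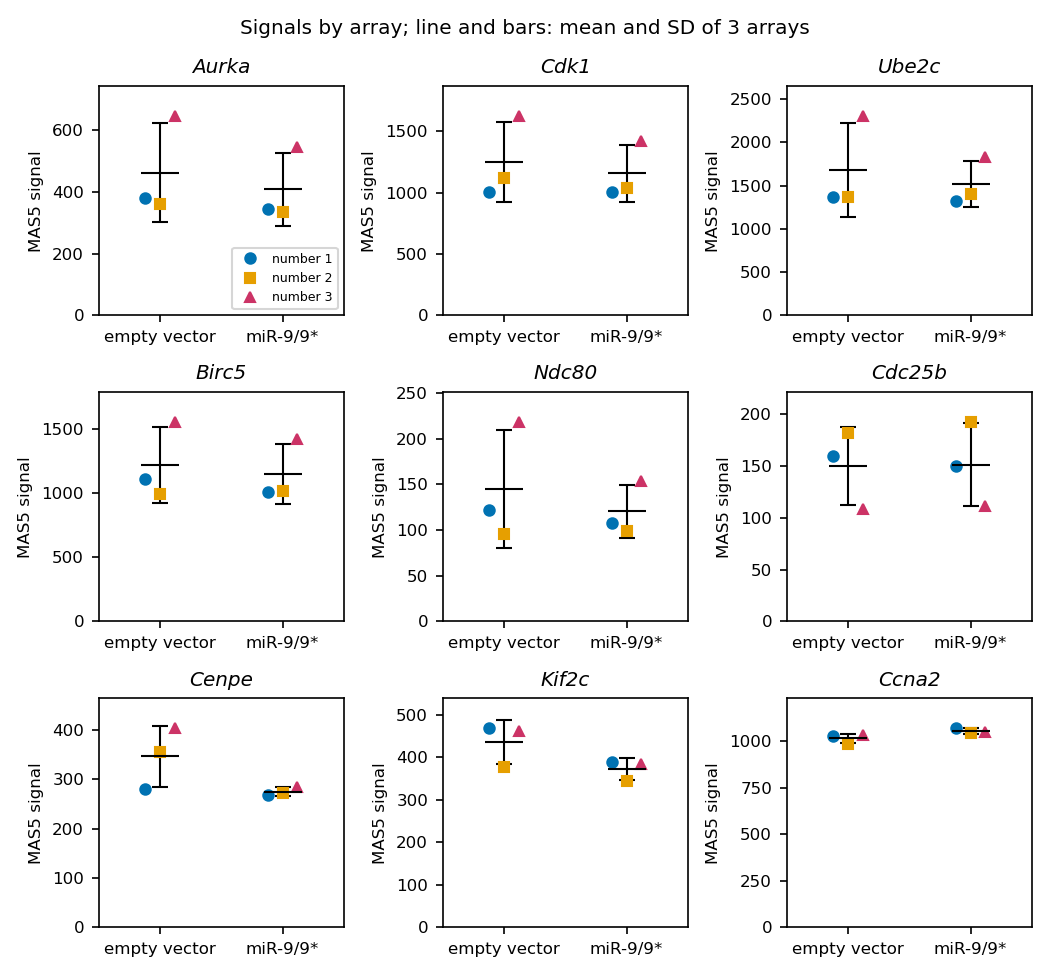
MAS5 signal (y axis, linear, from 0) of 9 genes in the 3 empty vector and 3 miR-9/9* arrays, with a symbol per replicate number and the mean and SD of each arm as a line and bars. Number 3 is the highest array of both arms for Aurka, Cdk1, Ube2c, Birc5 and Ndc80 and the lowest for Cdc25b. The Ccna2 probe set used varies little.

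Genes with a bright signal were more often highest at number 3 than dim ones. Over all genes the share highest at number 3 in both arms was 8.13% at mean signals below 100, 19.4% from 100 to 300, 32.2% from 300 to 1000 and 54.5% from 1000 upward. For the members the counts in the same classes were 1 of 2, 5 of 8, 9 of 15 and 11 of 12. The median number 3 difference of the members was 0.15, 0.21, 0.15 and 0.36 in these classes, and that of all genes -0.12, -0.08, 0.02 and 0.18. The F test across numbers called 0 of 2, 4 of 8, 4 of 15 and 7 of 12 members in the same classes. Of all genes in them it called 11.9%, 29.2%, 36.3% and 28.8%, so from 300 to 1000 the members' share was below that of all genes. The arrays numbered 3 also had the lowest median signals, 11.99 and 12.9 against 14.0 to 15.2. After quantile normalization 22 members were highest at number 3 in both arms, against 25.4% of all genes, and after centring on array medians 33 were, against 31.2%. The part of signal level and scaling in the members' values was not tested.

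**Figure D4:**
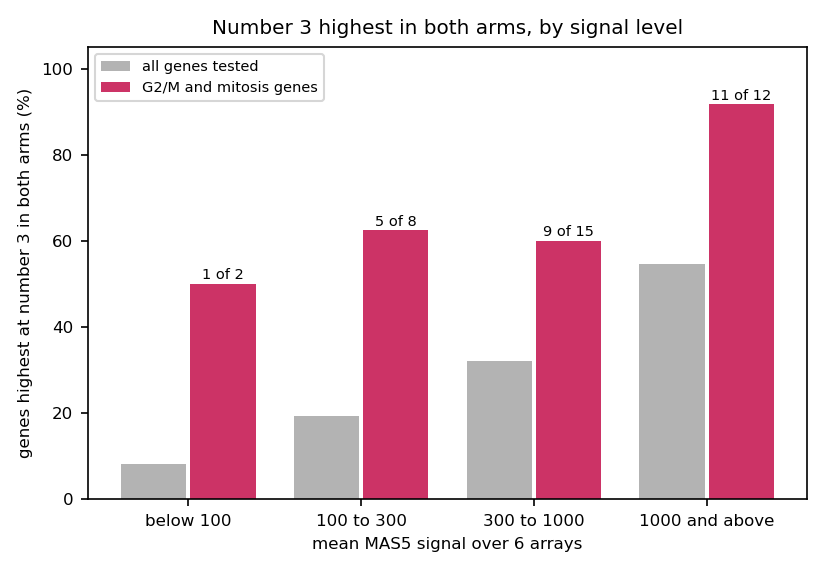
Share of genes (y axis, percent) whose number 3 array was the highest in both arms, by mean MAS5 signal over 6 arrays (x axis), for all genes tested (grey) and the G2/M and mitosis genes (red, with counts). The grey share climbs from 8.13% to 54.5% with signal, and the members reach 11 of 12 in the brightest class.

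With the number 3 arrays left out, the F test compares numbers 1 and 2 alone; it then called 3 members (8.11%), Bub1, Cdca8 and Kif23, and 8.24% of all genes. Leaving out number 1 of both arms gave 18 members (48.6%) and 24.2% of all genes, and leaving out number 2 gave 11 members (29.7%) and 17.8% of all genes. Without a variance trend in the fit, 6 members (16.2%) were called, with 870 genes in all (8.52%). Birc5, Cdc25b, Cdk1 and Ndc80 were the 4 members called in all 11 settings that used the 6 arrays at the same threshold. The share of all genes called in all 11 was not counted, so these 4 cannot be set against it.

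**Figure D5:**
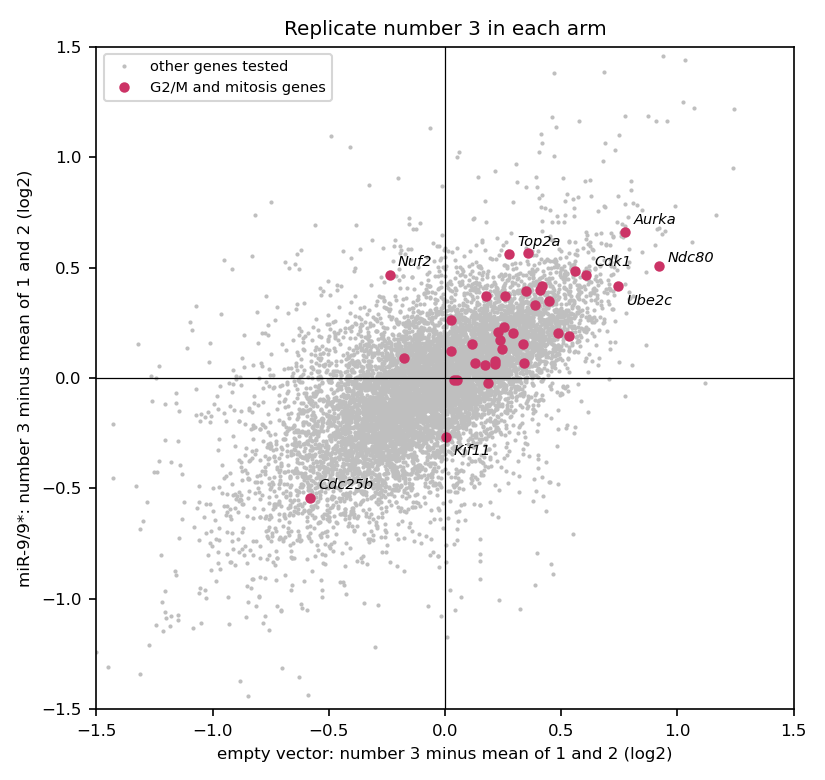
Level at replicate number 3 minus the mean of numbers 1 and 2, in log2(signal + 16), with the empty vector (x axis) and with miR-9/9* (y axis), for the members (red) and all other genes tested (grey); 37 genes outside the range of -1.5 to 1.5 are not drawn, none of them a member. Most members lie at the upper right, and Cdc25b lies in the lower left.

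Other probe sets of the same genes gave a mixed picture. The members had 81 probe sets with a single symbol, 25 members had more than 1, and 37 further probe sets of 24 genes were above the limit for dim probe sets. Of these 37, 18 were higher at number 3 than the mean of numbers 1 and 2, and 18 had the same sign there as the probe set used. Between arms 24 of the 37 were below 0, and 23 had the sign of the one used. All the further probe sets had a lower mean signal than the one used, by the rule that chose it. When the probe sets of each gene were averaged, 9 members were called across numbers (24.3%, against 21.5% of all genes), and 17 were highest at number 3 in both arms, against 18.5% of all genes.

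The disagreement was plain for some genes. A second Top2a probe set read 212, 249.99 and 118 with the empty vector and 191, 224 and 125 with miR-9/9*, lowest at number 3. The second of Ttk, a checkpoint kinase gene, was lowest there too, at 17.5 and 15.9. In Ccna2 the second probe set read 594, 616 and 976 against 627, 659 and 858, highest at number 3 where the first showed no order. The next brightest Hmmr set read 266, 231 and 231 against 220, 190 and 228. Over both arms its number 3 difference was 0.02, that of the dimmer Hmmr sets 0.09 to 0.21, and that of the set used 0.46. Hmmr was not called with averaged probe sets. Both further sets of Cdca8 and that of Aurkb were highest at number 3 in both arms like the ones used. For Cenpe the second probe set differed between arms by -0.17, in the direction of the first. The brightest further sets of Cenpa and Bub1b also kept the sign, at -0.31 and 0.07. Those of Tpx2, Kif2c and Kif23 differed by 0.05, -0.03 and -0.04, where the sets used gave -0.20, -0.21 and 0.18.

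A wider list of mitotic genes that are not among the 38 was read beside them. Of 114 listed symbols, a few of them older names of the same gene, 103 were tested, the median difference between arms was -0.02, and 64 (62.1%) were below 0, against 47.6% of all genes. None was called between arms in either fit, and with the block 9 (8.74%) had an unadjusted p under 0.05 by limma, against 17.0% of all genes. Across numbers 31 (30.1%) were called, against 24.3% of all genes, and 47 (45.6%) were highest at number 3 in both arms, against 21.1%. Cenpk, a subunit gene of the inner kinetochore, was at 386, 302 and 574 with the empty vector and 364, 319 and 540.1 with miR-9/9* (adjusted p = 0.00139, limma F test). Between the arms, the 2 with the highest mean, Stmn1 (a microtubule-destabilising protein gene) and Cks1b (a CDK subunit gene), differed by -0.16 and -0.0092.

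The regulators of these genes and the earlier cell cycle were read in the same way. Of 14 genes of the MuvB complex, E2F and MYB families and NF-Y, 1 (7.14%) was called across numbers, against 24.3% of all genes. It was Lin54, a DNA-binding subunit gene of MuvB, lowest at number 3 at 218 and 183. At number 3, 4 of the 14 (28.6%) were highest and 4 (28.6%) lowest in both arms, against 21.1% and 29.2% of all genes. The median difference between arms was -0.02. Mybl2, the gene of B-MYB, was at 185, 139 and 150.2 with the empty vector and 161, 130.2 and 133 with miR-9/9*, highest at number 1. Of 39 DNA replication and S-phase genes, 16 (41.0%) were called across numbers and 23 (59.0%) were highest at number 3 in both arms, against the same 24.3% and 21.1% of all genes. Their median difference between arms was 0.02, with 16 of 39 below 0.

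Of 11 measured G1 cyclin and CDK inhibitor genes, 6 were called across numbers (54.5%, against 24.3% of all genes). At number 3, 4 (36.4%) were highest and 4 (36.4%) lowest in both arms, against 21.1% and 29.2% of all genes. Cdkn2d, which encodes the CDK4 and CDK6 inhibitor p19INK4d, was at 286, 319 and 653 with the empty vector and 323, 321 and 775 with miR-9/9* (adjusted p = 0.000132, limma F test). Cdkn1b, the p27 gene, was lowest at number 3, at 125 and 129, with 169 and 206 in the empty vector arm and 209 and 246 in the other (adjusted p = 0.00432, limma F test). No gene of these 3 lists was called between the arms in either fit.

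Marker sums of other blood cell types had other orders of the numbers, except the erythroid sum. Sums cover every listed gene with a probe set, including those below the limit for dim probe sets. The summed signal of 10 late neutrophil genes was 3964, 1039 and 1249.9 with the empty vector. With miR-9/9* it was 2676, 253 and 1013, and it was highest at number 1 in both arms. The 6 eosinophil genes summed to 1378, 258 and 387 against 3779, 280.3 and 1077, also highest at number 1. The 11 erythroid genes summed to 3258, 2790.1 and 3979 against 3901, 3842 and 3995, with the sum highest at number 3 in both arms. Of the 7 of these above the limit for dim probe sets, 1 was itself highest there in both arms and 2 were lowest. The sum of 10 megakaryocyte genes was lowest there, at 1261 and 1520.1. The sum of 13 myeloid progenitor genes ranged from 8589.6 to 11280.1 with the empty vector and from 7218 to 12525 with miR-9/9*. Of 9 lymphoid markers with a probe set 2 were above the limit for dim probe sets, and of 6 stromal ones 1. Between the arms, limma with the block called 4 of 7 tested late neutrophil and 1 of 12 myeloid progenitor genes lower with miR-9/9*. Higher were 4 of 7 megakaryocyte, 3 of 7 erythroid, 2 of 4 eosinophil and 1 of 5 monocyte and macrophage genes. In this fit 2.96% of all tested genes were called, and the members' median was -0.10. Without the block only 1 gene of these lists was called, a monocyte and macrophage gene that was higher. The part of these cell types in the members' values was not tested.

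Motif matches were also counted by call. Of the 13 members called across numbers that had a promoter window, 8 held TTTGAA, 9 CCAAT and 7 both. Of the 17 measured members with a window that were not called, 15 held TTTGAA, 14 CCAAT and 13 both. These counts are a description of the letters in these windows, given without a test.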

How the data were processed

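The 6 arrays were grouped by the arm and replicate number in the sample titles. Per the labels' protocols, total RNA was extracted with Trizol and labelled with biotin for Affymetrix arrays. The deposited intensity values are MAS5 signals, per the submitters' processing notes, which give no version; the sources used here do not give scanner settings, and detection calls were not used. Per the values, the deposited intensity columns are linear, with a trimmed mean (2% off each end) of 100 per array, so no further normalization was applied.

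Probe sets (45101, of which 64 controls) were named from an older platform annotation in which 34945 carried 1 symbol, 932 several and 9160 none. Each gene was represented by its single-symbol probe set with the highest mean. Probe sets with a mean log2(signal + 16) below 4.86 (a signal of 12.9) were left out. Two-sided tests came from limma 3.58.1 under R 4.3.3, using lmFit and then eBayes with its trend option, over all 10208 genes with Benjamini-Hochberg adjustment and a threshold of 0.05. The fit without a block had 4 residual degrees of freedom and that with the replicate number as a block 2. The same-number correlations quoted in the results exceeded the limit of 0.1, so the numbers were taken to pair the arrays. The highest correlation between different numbers was -0.04. Deviations from an arm mean cancel within the arm, which pulls those correlations down, so they are not separate evidence of pairing. The scripts were tested on simulated data. The precision is limited by the number of arrays.

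The members and lists were chosen with earlier results of these data known; 1 gene listed by mistake among the MuvB genes was taken out after values were seen. Described in full are members called in either fit, the 10 with the smallest p across numbers, in each role the member with the highest mean, the 5 largest differences in each direction, and members with 1 sign in all numbers; others are given in part or by counts. Genes outside this rule, and the promoters, were picked after their values were seen. The alternatives changed the pseudocount, the filter, the scaling, the variance model, the weights of arrays, the handling of several probe sets or the threshold, or left out arrays; leaving out a number in the F test, the counts below 0 and at number 3, and the classes by signal were added after the data were seen.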

Additional observations from a re-analysis of the deposited data

How the results depend on the processing

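No member was called between the arms under any alternative without the block, and with the block only Cenpe was, lower, without replicate 1 of both arms (1 member); the other 960 comparisons for named members kept their side of the threshold. The replicate block changed no other member's call but raised the count over all genes from 2 higher and 4 lower to 154 and 148. Without the block these counts were 1 and 1 with a pseudocount of 1, 0 and 0 without the filter and at an adjusted p of 0.01, 1 and 2 without the variance trend and 14 and 12 with array weights; quantile normalization gave 2 lower. Leaving out single arrays gave 0 to 3 higher and 0 to 5 lower, and a median over members from -0.18 to -0.0048. With the replicate block, the counts were 40 and 34 without the filter, 21 and 17 without the trend, 100 and 87 with averaged probe sets and 88 and 80 without replicate 1 of both arms. In the wider lists, 1 gene was called lower with the block without replicate 2 of both arms.

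The test across numbers called 1057 genes without the filter, 870 without the trend, 818 at an adjusted p of 0.01 and 838 without replicate 3 of both arms, against 2479. Leaving out single arrays gave 1503 to 2636 genes, the lowest without empty vector 3, and 12 to 14 members. For members the count was 24 with centred arrays (2477 genes in all, 24.3%), 6 without the trend, 9 with averaged probe sets, 9 at an adjusted p of 0.01 and 3 without replicate 3 of both arms, against 15; with averaged probe sets 17 were highest at number 3 in both arms, against 26. The causes were not tested. Dim probe sets limit what can be seen below a signal of about 12.9.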
